A study of Mus musculus with 6 samples.

Results

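The control otic vesicle of the mouse embryo was described from the 3 control arrays among the 6 arrays of the series, with all probe sets that the platform annotation assigns to 1 gene symbol. These read 18193 genes. No comparison between genotypes was made. The controls carried T-Cre, which recombines in early mesoderm, and were heterozygous for a conditional allele of Tbx1, a T-box transcription factor gene, so they are not wild type embryos. They were collected at embryonic day 11.5, and each array carried RNA pooled from both ears of 3 embryos. Periotic tissue had been dissected and then treated with dispase for 30 min at 37 °C. The labels give removal of periotic tissue as the aim of that step, and how much of it stayed with the vesicle is not stated.

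The otic vesicle is the epithelial sac from which the whole inner ear is built. Its ventral part grows into the cochlear duct, its dorsal part into the vestibule and the endolymphatic duct, and neuroblasts leave it to form the cochleovestibular ganglion. Around it lie mesenchyme that will become the otic capsule, the hindbrain, vessels and blood.

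The deposited values are linear intensities, scaled on every array to a trimmed mean of 500. A gene was read from the probe set with its highest mean signal, and its rank is the rank of that signal. Probe sets differ in how strongly they respond to the same amount of RNA. Among the 5498 genes with 2 or more probe sets above background, the probe sets of 1 gene spanned a median of 2.06 in log2, and 51.4% spanned 4-fold or more. Ranks therefore place a gene broadly on the range of signals and do not order transcript abundance between genes. As a background reference, the 95th percentile of 72 genes for olfactory, vomeronasal and bitter taste receptors was taken on each array. It lay at an intensity of 50.0 in control 1, 36.2 in control 2 and 38.0 in control 3. A gene was counted as above background when it exceeded the reference on all 3 arrays. This held for 11627 genes, or 63.9%, and 5356 genes exceeded it on no array. A low reading does not show that a transcript is absent. Rps16, a constituent of the small ribosomal subunit chosen after its values were seen, read 2.08, 11.5 and 0.41 on arrays 1, 2 and 3.

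Ribosomal protein genes filled the top of the range. They made up 17 of the 30 brightest genes and 31 of the brightest 100, and 44 of their 49 measured members lay above background. Rpl38, of the large subunit, gave 16463 in control 1, 20292 in control 2 and 20537 in control 3. Rpl13a, also of the large subunit, gave 16556, 18178 and 18493. Control 1 was the lowest of the pools for both genes on the deposited scale, and for Rpl38 the pools spanned 0.11 in log2 once the arrays had been quantile normalized. Vertebrate ribosomal protein messages are known to begin with a tract of pyrimidines through which their translation is regulated. The RefSeq stretches from 40 bases before the annotated start to 15 bases after it are shown for 5 of the brightest ribosomal protein genes to let this tract be seen, and for 2 embryonic globin genes, which were also bright, as a different kind of start (build GRCm38.p6, read 5′ to 3′ on the gene's own strand). Capitals mark a run of at least 6 C or T bases that reaches within 5 bases of the start, or TATAAA or ATAAAA between 40 and 16 bases before it. Rpl38 lies at chr11:114668540-114668594 on the plus strand, Rpl13a at chr7:45128731-45128785 on the minus strand, Rpl7a at chr2:26910767-26910821 on the plus strand, Rpl35 at chr2:39005117-39005171 on the minus strand and Rps28 at chr17:33824548-33824602 on the minus strand. The embryonic globin genes Hbb-y and Hba-x lie at chr7:103853193-103853247 on the minus strand and chr11:32276560-32276614 on the plus strand.
Rpl38: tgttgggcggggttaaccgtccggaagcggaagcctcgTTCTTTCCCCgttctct
Rpl13a: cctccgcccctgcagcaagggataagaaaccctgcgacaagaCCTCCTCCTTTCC
Rpl7a: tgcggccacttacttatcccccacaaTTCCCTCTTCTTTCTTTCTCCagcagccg
Rpl35: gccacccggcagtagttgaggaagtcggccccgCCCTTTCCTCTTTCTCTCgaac
Rps28: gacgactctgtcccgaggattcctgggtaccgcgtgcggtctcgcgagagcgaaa
Hbb-y: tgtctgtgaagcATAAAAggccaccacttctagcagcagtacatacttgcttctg
Hba-x: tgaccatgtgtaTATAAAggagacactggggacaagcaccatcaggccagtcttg

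Such a C or T run of 6 or more bases was present in 18 of the 32 ribosomal protein genes above background that have a single entry in the promoter table, or 56.2%. Of all 11791 matched genes it was present in 20.8%, and of the 634 matched genes among the brightest 1000 that are not ribosomal protein genes in 21.9%. Rps28 is one of those without it. The promoter windows of 300 bases, 250 before the start and 50 after it, also differed with level. Genes above background on no array held a median of 5 CpG dinucleotides per window, and genes above on all arrays held 22. With all genes in 10 equal bands of level, the median was 4 in the dimmest band and 24 in the brightest. GGGCGG, sought on both strands, was found in 26.4% of promoters of genes above background on no array and in 68.8% of those of genes above on all arrays, against 54.3% of all matched promoters. TATAAA at the position given above, sought on the gene's own strand, went the other way, with 6.2% and 1.2%, against 2.8% of all. ATAAAA at the same position, which overlaps TATAAA in TATAAAA, was found in 4.7% and 0.8%, against 2.1% of all. These shares describe letters in a window and show no binding site.

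**Figure D1:**
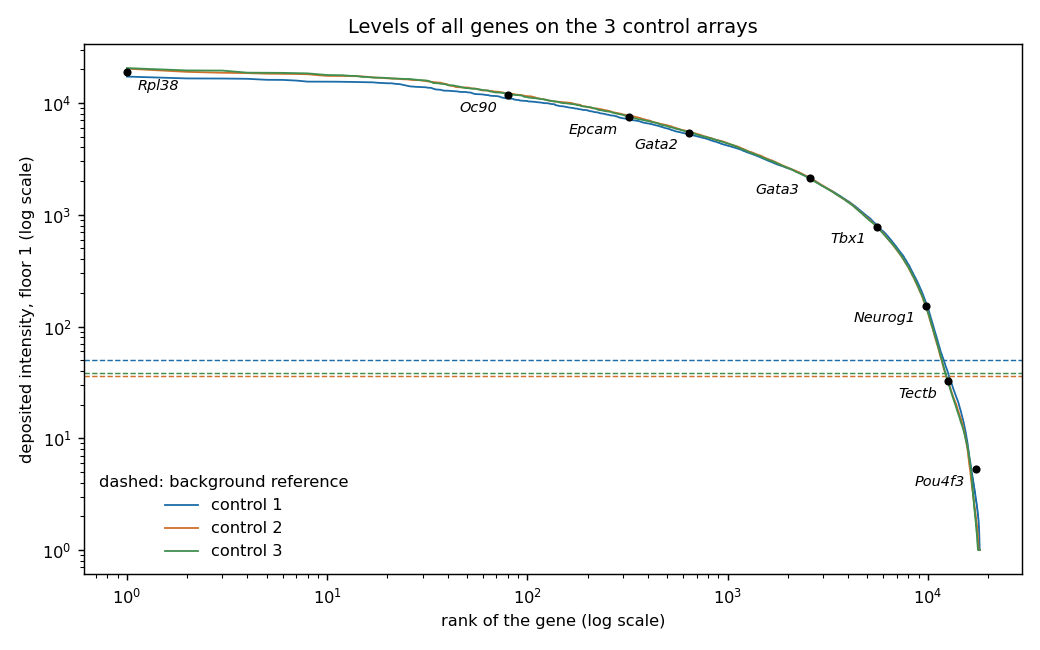
The deposited intensity of the 18193 genes, sorted within each of the 3 control arrays (lines), against rank, both on log scales, with values under 1 drawn at 1. Points mark the mean intensity and rank of named genes and dashed lines the background reference of each array. Oc90 lay at rank 80, Gata3 at rank 2569 and Tbx1 at rank 5579, while Tectb and Pou4f3 lay under the reference on every array.

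Beside ribosomal proteins, the 30 brightest genes included Naca, a chaperone subunit at the ribosome, and the cytoskeletal genes Actb, Tuba1a and Tmsb10. They also included the surface glycoprotein gene Cd24a, the chaperone gene Hspa8 and 1 transcription factor gene, Sox11, which is known from neural and other progenitors. Sox11 gave 13677, 16030 and 16028 and ranked 28. Of the fixed set of 14 ear and epithelial genes, the one of highest rank was Oc90, which encodes otoconin, the main protein of the otoconia, the crystals that load the vestibular maculae. It gave 11149, 11580 and 12448, a mean of 11726 ± 662 (SD, n = 3), from a single probe set. Its 3 values spanned 0.13 in log2 after normalization, and it ranked 80. Sparc, a matrix protein also found in otoconia, ranked 76 with 10884, 11825 and 13034. Among other structural products of the future inner ear, the tectorin genes read low at this stage. Tectb, which encodes a tectorin of the tectorial and otolithic membranes, gave 42.0, 22.7 and 32.0, under the reference on every array. Tecta, the other tectorin, gave 70.1, 63.4 and 45.5, just above it on all 3. Of the 12 measured genes for otoconial and membrane proteins, 10 lay above background, at a median percentile of 52.7, so the list as a whole was not low.

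Epithelial genes were bright. Of 31 measured, 30 lay above background, at a median percentile of 80.9 among all genes. Krt18, a keratin of simple epithelia, gave 10424, 11813 and 11854. Cldn6, a tight junction gene of embryonic epithelia, gave 8054, 10039 and 9960. Epcam, an epithelial adhesion gene, gave 7259, 7849 and 7251, and Cdh1, which encodes E-cadherin, gave 4814, 4532 and 4648. The pools overlapped closely for all 4, with ranges of at most 0.21 in log2 after normalization. Grhl3, of the surface ectoderm, was the only member not above background. These 4 genes are shared with surface and pharyngeal epithelium and mark epithelium in general, whereas Oc90, described above, bears on the otic label. The transcription factors below were listed for the placode and vesicle, with earlier results of these data known. At least Sox10 among them is shared with other tissue, so their count above background does not by itself show otic identity.

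Genes for transcription factors of the placode and vesicle, which set up and pattern the ear, lay above background for 30 of the 31 measured, at a median percentile of 84.5. The top of the list by rank was Nr2f1, a nuclear receptor gene whose loss alters the cochlea, with 6537, 6494 and 6759. Gata2 followed with 4859, 5497 and 5846 and Sall4, a zinc finger gene, with 4539, 5400 and 5306. Sox10 gave 5320, 4696 and 4509. It serves both the otic epithelium and neural crest, so its signal cannot be assigned to either in RNA of a whole dissection. Eya4, a transcriptional coactivator gene mutated in human deafness, gave 5129, 4773 and 4303. The low end of the list held Pax8, an early placode gene, with 107, 96.2 and 98.3, Eya2 with 139, 86.4 and 76.7, and Hmx3, of the dorsolateral vesicle, with 104, 76.7 and 83.0. Lmx1b, with 44.5, 54.2 and 60.6, missed the criterion because of control 1 alone. Pax8 was chosen after its values were seen. In RNA of whole dissected tissue, fewer cells that express a gene and less RNA per cell cannot be told apart, so a low signal could stand for either.

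Over 22 families of transcription factors with 246 measured genes, 127 lay above background, a smaller share than the 63.9% of all genes. Of the 246, 27 lay in the brightest 10% of all genes and 11 in the brightest 1000 of the 18193 genes. These 11 were Sox11, Nr2f6, Sox4, Nr2f1, Id2, Gli3, Gata2, Hey1, Sox10, Eya4 and Nr2f2. The families differed in how many members were read. All 4 Eya genes, all 3 Gli genes, all 4 Id genes and all 6 Meis and Pbx genes lay above background, as did 5 of 6 Dlx genes and 5 of 6 Irx genes. Of 33 Hox genes, which pattern the hindbrain and trunk, 2 did so, against 63.9% of all genes. They were Hoxc4, with 103, 69.1 and 40.3, and Hoxc8, with 56.2, 40.5 and 62.6, both named after their values were seen. Of 8 Pax genes, Pax8 and Pax9 lay above background.

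The axes of the vesicle were both represented. On the ventral side, from which the cochlear duct grows, 19 of 19 measured genes lay above background, at a median percentile of 84.5. They included Jag1, a Notch ligand of the prosensory domains, with 4296, 4276 and 4703, Ptch1, the hedgehog receptor and target, with 4193, 4015 and 4482, and Otx2 with 2324, 2057 and 2653. The related gene Otx1 gave 237, 445 and 264, high in control 2. Gata3, needed for cochlear growth, gave 2170, 2074 and 2146, and its pools spanned 0.07 in log2 after normalization. Sox2, which marks the prosensory territory, gave 2870, 2710 and 2407. Fst, which encodes the BMP and activin antagonist follistatin, was less steady, with 3649, 2711 and 2368, highest in control 1. Lgr5, later a marker of cochlear supporting cells, lay near the reference with 64.2, 61.8 and 62.5. Tbx1, the gene that gives the genotype its name and that acts in the vesicle epithelium as well as in mesoderm, gave 898, 690 and 766 at percentile 69.3. On the dorsal side, 17 of 19 genes lay above background, at a median percentile of 59.9. Bmper, a modulator of BMP signals, gave 2356, 2177 and 2461, and Dlx5, required for the vestibule, gave 2161, 2329 and 2405. Bmp4, of the future cristae, gave 848, 854 and 772. Wnt3a and Wnt2b did not meet the criterion, and Wnt2b ran from 6.44 in control 1 to 39.2 in control 3.

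**Figure D2:**
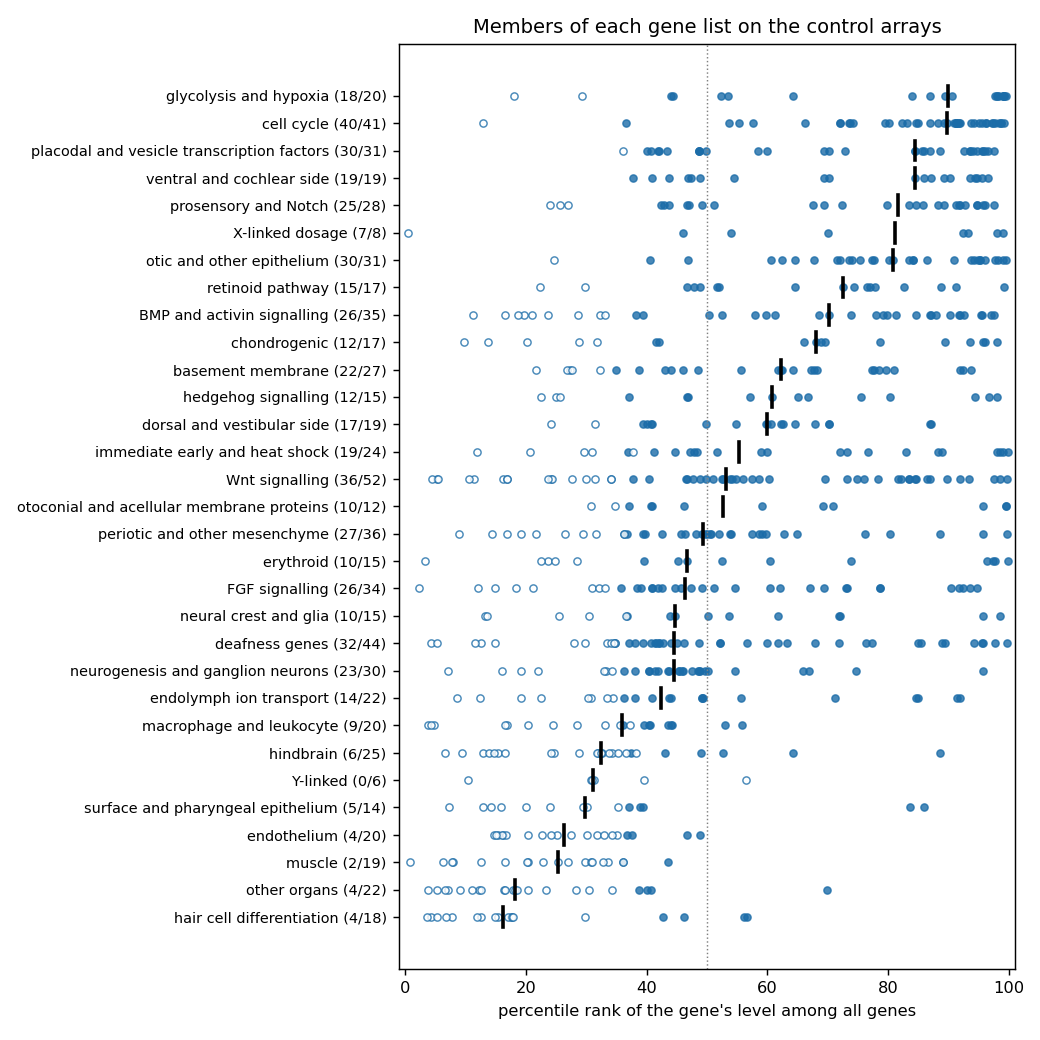
Percentile rank among all 18193 genes (x axis) of every measured member of 31 gene lists (rows), from the mean of the 3 control arrays. Filled points were above background on all 3 arrays and open points were not, the bar is the list's median, the dotted line is the median of all genes, and the numbers in brackets give members above background of members measured. The lists of the vesicle's transcription factors, epithelium and cell cycle lie high, and those of hair cells, muscle, endothelium and hindbrain lie low.

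The prosensory and Notch list, whose genes mark and refine the patches that will form sensory epithelia, lay above background for 25 of 28 members, at a median percentile of 81.7. The receptors Notch2, with 3985, 4772 and 4597, and Notch3, with 3284, 3579 and 3840, were bright, as was the Notch target Hey1 with 4839, 5164 and 5356. Among the ligands Jag1 was bright, Jag2 gave 114, 66.2 and 139, and Dll4 and Dll3 lay under the reference. Id2, an inhibitor of differentiation factors, gave 6661, 6464 and 5983. Hair cell genes were mostly unread. Of 18 measured, 4 lay above background, at a median percentile of 16.2, and 13 exceeded the reference on no array. Pou4f3, needed for hair cell survival, gave 1.80, 12.8 and 1.29. Atoh1, the hair cell determinant, gave 7.79, 11.7 and 12.7. The 4 above background were Myo7a with 312, 412 and 361, Myo6 with 392, 280 and 381, Pcdh15 with 156, 166 and 144 and Espn with 120, 115 and 86.7, which encode unconventional myosins, a link protein and an actin bundler of the hair bundle.

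Neurogenic genes were read in 23 of 30 cases (76.7%), beside 63.9% of all genes, at a median percentile of 44.5. Isl1, expressed in neuroblasts and in the prosensory epithelium, gave 4639, 5102 and 5043 and spanned 0.08 in log2 between pools. Neurod1, which drives neuroblast delamination and survival, gave 994, 1122 and 1096. Neurog1, the determinant upstream of it, gave 161, 171 and 128 from the brighter of its 2 probe sets, and the other gave 9.54, 34.9 and 21.1. Markers of differentiated neurons such as Tubb3, with 736, 579 and 619, were present, while Prph and Nefh lay under the reference. Genes of ion transport into the endolymph, the potassium-rich fluid of the inner ear, were above background in 14 of 22 cases. This was 63.6%, close to the 63.9% of all genes. Car2, a carbonic anhydrase, gave 3146, 3363 and 3313, the cotransporter gene Slc12a2 gave 3005, 3249 and 3237, and the gap junction gene Gjb2 gave 2144, 1908 and 1912. Bsnd, the chloride channel subunit of the stria and dark cells, gave 3.30, 1.84 and 20.9, all under the reference. Of 44 measured genes of human deafness, which several other lists share, 32 (72.7%) lay above background. Fbxo2, which encodes an ubiquitin ligase subunit of the otic epithelium, gave 1194, 1177 and 941, and Clu, which encodes the secreted chaperone clusterin, gave 7997, 6484 and 6444. All 4 Clu probe sets were highest in control 1.

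In the signalling lists, receptors, mediators and targets were among the members of highest rank. Counts of members are given here beside the 63.9% of all genes that lay above background, and several lists were not far from it. In the Wnt list, 36 of 52 members (69.2%) lay above background. The mediator Ctnnb1 ranked 57 with 12011, 13568 and 12986, and 9 of 10 Frizzled receptors were read, led by Fzd7 with 6380, 6475 and 6416. Of 19 Wnt ligands, 7 (36.8%) were read. In the FGF list 26 of 34 members (76.5%) were read. Among them were Fgfr2 with 3932, 4594 and 4884 and the pathway targets Etv5, Spry2 and Dusp6, the last with 2615, 3242 and 2946. Of 22 Fgf ligands, 13 (59.1%) were read. Fgf3 and Fgf10, ligands of early ear induction and growth, belonged to the ventral genes that all lay above background, and Fgf10 gave 102, 84.6 and 79.8. Fgf8 gave 2.86, 2.14 and 2.18. In the hedgehog list 12 of 15 members (80.0%) were read, with Gas1 at 7168, 6710 and 8017 and Gli3 at 5412, 5719 and 5901. The ligands Shh, Ihh and Dhh were not above background on all arrays. Shh read 64.9, 6.69 and 17.1, over the reference in control 1 only. In the BMP and activin list 26 of 35 members (74.3%) were read, at a median percentile of 70.2. The receptor gene Acvr2a gave 6213, 5722 and 5925 and the transducer Smad1 gave 4548, 5241 and 4645. In the retinoid list 15 of 17 members (88.2%) were read, led by Crabp2, a binding protein of retinoic acid, with 8913, 10795 and 10430. Rdh10, which makes retinaldehyde, gave 3128, 2973 and 3229. Rara, a receptor for retinoic acid, read 7.90, 51.4 and 58.7, under the reference in control 1 only.

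Proliferation genes were bright and steady, with 40 of 41 above background at a median percentile of 89.7. Ccnd1, a G1 cyclin, gave 9342, 10301 and 9759, and Pcna, the replication clamp, gave 8458, 8748 and 8377. The exception was Cdkn2a, a cell cycle inhibitor, with 3.23, 14.6 and 8.60. Glycolysis and hypoxia genes lay at a median percentile of 90, led by Ldha, lactate dehydrogenase, with 11383, 10982 and 11929. Basement membrane genes were read in 22 of 27 cases (81.5%), beside 63.9% of all genes. Col4a1 and Col4a2, the chains common to all basement membranes, gave 3894, 3394 and 3184 and 3664, 3146 and 3058, while Col4a3, a chain of specialised membranes, lay under the reference in all pools.

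Genes of neighbouring tissues were read to differing extents. Mesenchymal genes were read in 27 of 36 cases (75.0%), beside 63.9% of all genes, at a median percentile of 49.4. The members of highest rank, Vim with 13121, 12796 and 12892 and Fn1 with 5005, 4748 and 4832, are widely expressed, and Lum and Dcn, matrix proteoglycan genes, gave 1736, 1402 and 1327 and 1218, 1250 and 1050. Among chondrogenic genes, 12 of 17 (70.6%) were read, led by Col2a1 with 7170, 7351 and 7134. Col2a1, Col9a1 and Sox9 are also expressed by otic epithelium, so these values do not by themselves show cartilage precursors. Globins of the embryo were bright, with Hbb-y at 14525, 13462 and 14412 and Hba-x at 6677, 6483 and 7564. Hba-a1 was listed at 3.22, 2.87 and 2.30 while Hba-a2, a near-identical copy, gave 5327, 6902 and 6900, so these readings cannot be assigned to 1 of the copies. Endothelial genes were above background in 4 of 20 cases, with Pecam1 at 6.59, 8.52 and 11.2. Muscle genes were read in 2 of 19 cases, hindbrain genes in 6 of 25, genes of surface and pharyngeal epithelium in 5 of 14 and genes of distant organs in 4 of 22. Macrophage and leukocyte genes were read in 9 of 20 cases. Spi1, the myeloid determinant, read 4.63, 5.63 and 1.14, while Csf1r, the macrophage receptor, named after its values were seen, read 139, 41.5 and 21.9.

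The 3 pools agreed closely for genes above background on all arrays. No test is possible between pools, since each was measured on 1 array. Among the 11627 genes above background, the median SD between pools was 0.119 in log2 after quantile normalization. In 11419 of them, or 98.2%, the highest and lowest pool differed by less than 2-fold, and 8 genes differed by 4-fold or more. The filter itself favours agreement. It leaves out genes that fell to background in 1 pool, such as Eif2s3y with 1373, 12.1 and 2590. With no filter the share within 2-fold was 73.7%. Pearson correlations between pairs of arrays over the genes above background, which share their probes, ranged from 0.989 to 0.990. The spread depended on level. With all genes in 10 equal bands of level, the median SD was 1.18 in the dimmest band, 0.215 in the fifth and 0.067 in the brightest. In the brightest 1000 genes, the pools of all but 1 lay within 2-fold. The exception was Gpc1, a heparan sulfate proteoglycan of the cell surface, with 6984, 10294 and 3797. It is read by 1 probe set, and no second probe set bears on it.

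**Figure D3:**
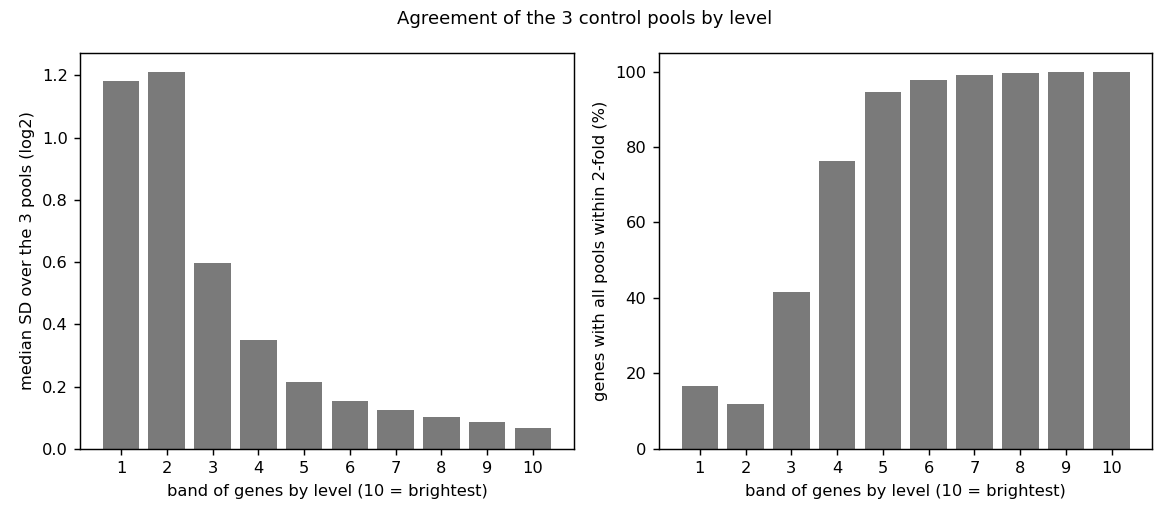
Left, median SD between the 3 control pools in log2 after quantile normalization, and right, percent of genes whose pools all lay within 2-fold, for the 18193 genes in 10 equal bands of mean level (bars). The SD was highest in the 2 dimmest bands, 1.18 and 1.21, and 0.067 in the brightest.

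Genes in which 1 pool lay 2-fold or more from both others were few and mostly dim. They were counted among the 12837 genes above the reference on at least 1 array. A gene high in 1 pool could be eligible through that pool alone, and this limit also holds for the counts of lists below. Control 1 lay above both others in 69 genes (0.538%) and below both in 104 (0.81%). Under the deposited scaling alone these counts were 102 and 79, so the balance of higher and lower genes turned. Control 2 lay above in 55 genes (0.428%) and below in 95 (0.74%), and under the deposited scaling in 37 and 121. Control 3 lay above in 46 genes (0.358%) and below in 130 (1.01%). Restricted to genes above the reference on all 3 arrays, the counts were 17, 7, 3, 9, 8 and 26 in the same order. A second probe set above the reference existed for 61 of the 499 calls and made the same call in 19. The percentages are over eligible genes of all levels, and dim genes met the rule more often. All pools lay within 2-fold for 76.2% of genes in the fourth band from the dimmest and for 99.8% in the brightest. No share matched for level was computed, so for dim lists the share of all genes is a low comparison.

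Control 1 was marked by genes of the midbrain and hindbrain. En2, a homeobox gene of the midbrain-hindbrain boundary, gave 206, 2.49 and 1.70. Cnpy1, expressed at the same boundary, gave 214, 27.3 and 9.20, and its other 2 probe sets were also highest in control 1. Fabp7, a fatty acid binding protein of radial glia and crest-derived glia, gave 1619, 396 and 191. Hoxb3 gave 177, 47.0 and 35.4, and Hoxb5 gave 53.6, 2.89 and 2.50. The other Hoxb3 probe set gave 57.1, 16.7 and 36.6 and did not make the 2-fold call. En2, Cnpy1 and Hoxb5 exceeded the reference in control 1 only, so they were eligible through the pool in which they were high. In the hindbrain list, 3 of the 15 members eligible for the count lay 2-fold above in control 1, beside 0.538% of all genes. In control 3, 4 lay 2-fold below, beside 1.01%. No count limited to genes above the reference on all arrays was made for this list. The summed intensity of the 25 hindbrain genes was 5361, 4813 and 3376, and the mean log2 level was 5.72, 5.21 and 4.81, a range of 0.909 that was 0.366 without control 1 and 0.506 without control 3. Its members Dbx1, Lbx1, Pax7 and Olig2 were under the reference on all arrays. Of a list of 8 midbrain-hindbrain boundary genes chosen after the values were seen, En2 and Cnpy1 were the calls of control 1, while Gbx2, which the otic vesicle itself expresses, was steady with 542, 514 and 531. Without control 3, 12 hindbrain genes in place of 6 lay above background.

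Macrophage genes were likewise highest in control 1. Of 12 eligible members, 6 lay 2-fold above both other pools there, beside 0.538% of all genes. The list was dim, at a median percentile of 35.9, and the share of all genes includes brighter and steadier genes. C1qb, a complement subunit made by macrophages, gave 284, 114 and 57.7, and Pf4 gave 229, 102 and 70.4. C1qb and Csf1r each had another probe set above the reference on at least 1 array, which did not make the 2-fold call. The summed intensity of the 20 genes was 2609, 1327 and 1120, and the mean log2 level was 6.06, 5.10 and 4.40, a range of 1.66 that was 0.419 without control 1 and 0.965 without control 3. Aif1, C1qa, C1qc and Spi1 were under the reference on all arrays. Immediate early genes, which respond within minutes to stimuli that include tissue handling, were higher in control 1 for a few members. Fos gave 511, 138 and 216, Junb gave 90.6, 8.85 and 28.8, and Egr1 gave 906, 219 and 456, the first and the last of them named after their values were seen. The heat shock genes of the same list, such as Hspa8 with 14003, 15571 and 16389, did not share this order. Acta2, smooth muscle actin, gave 225, 36.6 and 43.4, and Shh, described above, also belonged to the 10 genes farthest above in control 1. The part of other tissue or of handling in these values was not tested.

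Control 2 stood apart in transthyretin. Ttr, the carrier of thyroid hormone and retinol made by choroid plexus and yolk sac endoderm, gave 1042, 4536 and 111. All 4 Ttr probe sets had the same order. Slc4a5, a bicarbonate transporter of choroid plexus, gave 2.39, 42.3 and 6.95, just over the reference in control 2. A list of 9 measured choroid plexus genes was chosen after the values were seen. Of 6 eligible, Ttr and Slc4a5 lay 2-fold above in control 2, where 0.428% of all genes did. Slc4a5 was eligible through control 2 alone. Clic6, with 883, 993 and 881, and Sostdc1, with 580, 483 and 519, were steady, and Folr1 and Kl lay under the reference. Motile cilia genes were also listed after the values were seen, and 9 were measured. Of 6 eligible, 3 lay 2-fold above in control 2, dim in every pool. These 3 exceeded the reference in control 2 only. They were thus eligible through the pool in which they were high, and their count is no independent support. Ak7 gave 33.1, 91.2 and 27.1, Ccno gave 34.2, 77.2 and 26.7, and Ccdc96 gave 23.1, 58.3 and 8.28, while Foxj1, the determinant of motile cilia, lay under the reference in all pools. Of genes of liver and gut in the list of other organs, Apoa1 had the same order of pools, with 82.3, 102 and 62.5, and Apoa2 was also highest in control 2, with 58.3, 82.7 and 72.4, but the pools of both lay within 2-fold. The summed intensity of that list was 1584, 5040 and 561, set by Ttr.

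The Y-linked genes with signal in the other pools were low in control 2. Eif2s3y, a translation factor gene on the Y, gave 1373, 12.1 and 2590. Kdm5d, a histone demethylase gene, gave 289, 4.68 and 322. Another Kdm5d probe set above the reference gave 38.4, 21.4 and 77.5, also lowest in control 2, but did not make the 2-fold call. Uty gave 53.8, 9.83 and 68.6, the lowest in control 2 in all 4 of its probe sets. Of the 6 Y-linked genes, the 3 read on at least 1 array were all 2-fold lower in control 2, beside 0.74% of all genes. Sry, with 35.7, 31.3 and 28.8, and Zfy2 lay under the reference in every pool. Of the 9 genes measured on the Y chromosome in all, 1 lay above background in every pool, Orly, with 56.9, 46.6 and 54.5, named after its values were seen. Xist, the RNA made from the inactive X, gave 4118, 5034 and 2594, highest in control 2 in all 3 of its probe sets and above background in all pools. The X chromosome as a whole did not differ. Over its 391 genes above background, the median difference of control 2 from the mean of the other pools was -0.0005 in log2, against 0.0047 on the autosomes. S100a9 and S100a8, alarmins of neutrophils, were low in control 2 too, with 129, 2.04 and 69.2 and with 26.3, 2.07 and 51.6, while the neutrophil granule gene Elane lay under the reference on all arrays.

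Control 3 held the least mesenchymal signal. Of 30 eligible mesenchymal genes, 8 lay 2-fold below both other pools there, beside 1.01% of all genes. Col6a3 gave 56.3, 17.7 and 0.76. The other 7, named after their values were seen, were Col1a1 with 757, 383 and 193, Col3a1 with 873, 650 and 265, Twist1 with 476, 348 and 150, Foxc1 with 286, 297 and 119, Foxc2 with 321, 378 and 100, Col5a2 and Foxd1. They encode fibrillar collagens and transcription factors of head mesenchyme. Col6a3 exceeded the reference in control 1 only and also lay 2-fold above both other pools there. In control 1, 2 of the 30 eligible mesenchymal genes lay 2-fold above, beside 0.538% of all genes. The summed intensity of the 36 genes was 32230, 29164 and 26292, and their mean log2 level was 7.74, 7.51 and 6.70, a range of 1.05 that was 0.235 without control 3. Vim spanned 0.20 and Fn1 0.14 in log2 between pools. Zic1, a transcription factor gene of meninges and dorsal neural tube, gave 607, 319 and 97.0, Olig3, of the dorsal hindbrain, gave 57.7, 21.7 and 0.99, and the endothelial genes Cdh5 and Emcn gave 51.0, 34.9 and 4.32 and 54.0, 62.1 and 7.97. Olig3 also lay 2-fold above in control 1, the only pool in which it exceeded the reference. Emcn was named after its values were seen. In the endothelial list, 2 of 10 eligible genes lay 2-fold below in control 3, beside 1.01% of all genes. Pecam1, described above, was under the reference in all pools and was not lowest in control 3. Among the 46 genes in which control 3 lay above both others were Cdk3, a cyclin-dependent kinase gene, with 5.16, 3.21 and 42.0, and Cxcl16, a chemokine gene, with 14.5, 6.19 and 56.0.

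**Figure D4:**
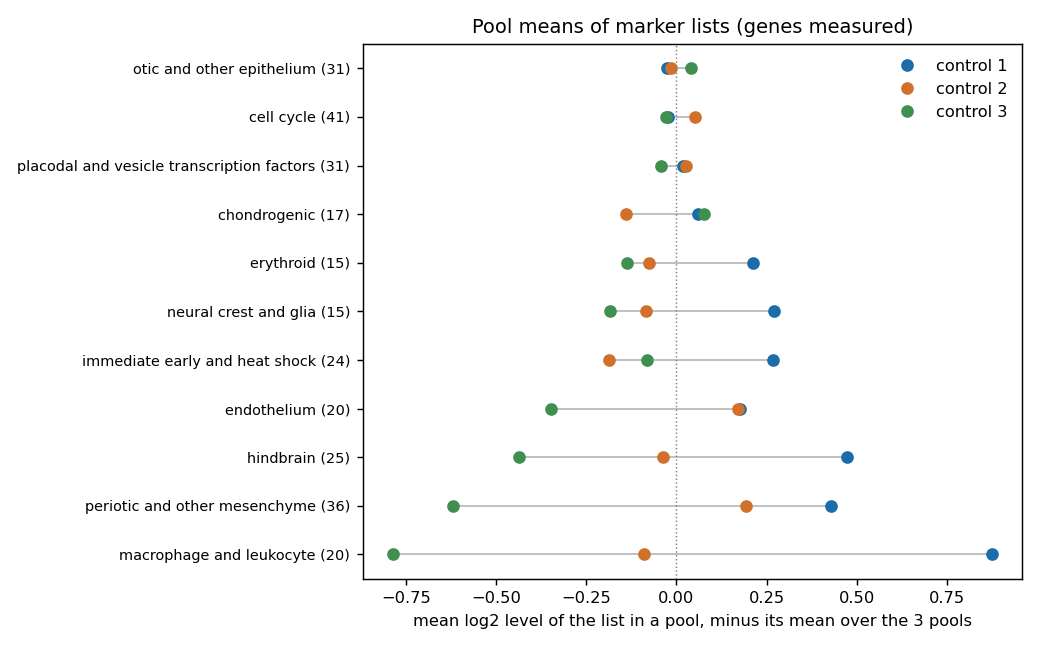
Mean log2 level of each marker list in each control pool after quantile normalization, as the difference from the list's mean over the 3 pools (points), with the number of measured genes in brackets. The epithelium list spanned 0.07 and the cell cycle list 0.08 in log2 (epithelium 0.131 with the mean over probe sets), while the mesenchyme list spanned 1.05 and the macrophage list 1.66.

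**Figure D5:**
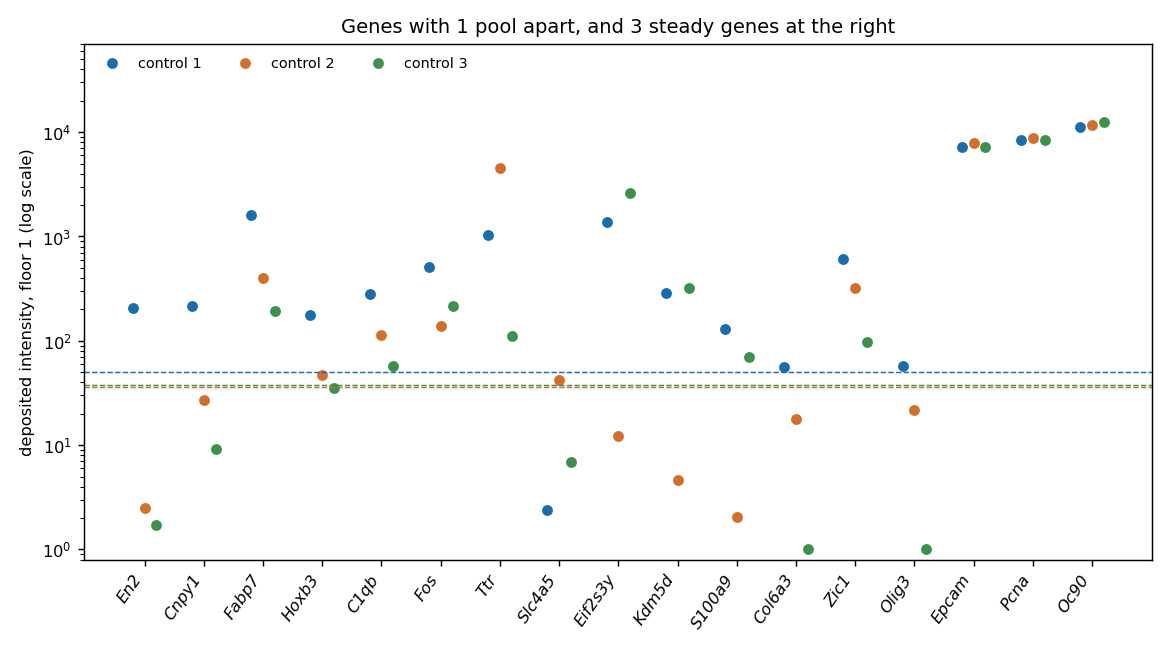
Deposited intensity on a log scale, with values under 1 drawn at 1, of genes in which 1 control pool lay apart and of 3 steady genes at the right (points, 1 for each pool). Dashed lines are the background references. En2 was 206 in control 1 and under 3 in the others, Ttr was 4536 in control 2 and 111 in control 3, and Epcam, Pcna and Oc90 lay close together.

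Of 31 placodal transcription factor genes, 19 ventral genes and 30 eligible epithelial genes, none met the 2-fold rule in any pool. From 0.358% to 1.01% of all genes met it in each class, and among genes above the 60th percentile of level, where most of these lie, only 1 to 5 genes did. Their mean log2 levels were 9.82, 9.83 and 9.76 for the transcription factors, 9.77, 9.82 and 9.77 for the ventral genes and 10.50, 10.51 and 10.56 for the epithelium. Members of other lists that hold genes of the vesicle or its ganglion did meet the rule. Of the 19 dorsal genes, 1 met it, Wnt2b, which was low in control 1. Of 26 eligible prosensory and Notch genes, the Notch target Hes5 lay above in control 1, with 54.9, 19.5 and 11.1, and of 16 eligible retinoid genes Rara, described above, lay below. Of 26 eligible neurogenic genes, 3 lay above in control 1, beside 0.538% of all genes. They were Stmn3 with 403, 123 and 150, Ina with 317, 66.2 and 138, and Nhlh1 with 70.3, 28.7 and 30.3, all expressed by neurons or neuroblasts. Whether their signal, or that of Hes5, came from the ear or from hindbrain was not tested. Stmn2, a neuronal growth gene, lay below in control 2, with 234, 70.0 and 207, and Pou4f1, of sensory neurons, lay above in control 3, with 81.9, 66.1 and 168. These 5 neurogenic genes were named after their values were seen. Nhlh1 and Hes5 exceeded the reference in control 1 only, so they were eligible through the pool in which they were high.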

How the data were processed

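RNA of the 3 control pools was hybridised by the authors to Affymetrix Mouse arrays after labelling of 300 ng of total RNA, per the labels' protocols. The deposited values are linear intensities, made with Affymetrix Expression Console 1.1 per the submitters' processing notes, with probe summary and background steps not given in the sources used here. The values show a mean of 500 after trimming 2% from each end. Of 45101 probe sets, 64 controls, 932 with several symbols and 9160 unnamed were left out, leaving 34945 for 18193 genes. Symbols were updated through RefSeq for 34741 probe sets. Values were floored at an intensity of 1 and converted to log2, and the brightest probe set stood for its gene. Differences between pools used values quantile normalized over the 3 arrays. No test was made: each pool is 1 array, and precision is limited by having 3 of them. The knockout arrays were not used. Scripts ran in Python 3.11.15 with pandas 2.3.3, numpy 2.4.6 and matplotlib 3.10.9. Genes counted with 1 pool apart had median intensities from 24.3 (control 2 above) to 36.7 (control 1 above). The accuracy of the count at such low levels was not tested.

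The members and lists were chosen with earlier results of these data known, and 6 lists were added after seeing the control values. Named genes were drawn from the 30 brightest genes and up to 10 of the 40 brightest transcription factors. Others came from up to 6 highest and 4 lowest members of each list. The 10 genes farthest apart in each pool class, the sex-linked genes and a fixed set of ear genes were further sources. Not every gene of these sets is named. Any other gene is marked where it is named. The labels call the arrays biological replicates. Alternatives were other background references, scalings, floors, filters, folds and probe set rules, and leaving out each array.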

Additional observations from a re-analysis of the deposited data

How the results depend on the processing

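The count of genes above background was 11627 and ran from 10681 to 12159 over the other references, array rules and probe set rules, and from 11746 to 11924 with 1 array left out. The median SD was 0.140 with the mean over probe sets, 0.124 with the deposited scaling alone, 0.142 with median centring, 0.198 with no filter and 0.0919 for genes above the 60th percentile. With 1 array left out it ran from 0.0933 to 0.102. The percent of genes within 2-fold was 96.5 with the mean over probe sets, 98.1 with the deposited scaling, 73.7 with no filter, 99.6 above the 60th percentile, and 99.12 to 99.3 with 1 array left out, where only 2 pools remain to differ.

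Counts of genes with 1 pool apart are given as above and below for controls 1, 2 and 3 in turn. They were 245, 299, 230, 235, 163 and 327 at 1.5-fold, 704, 849, 619, 755, 557 and 844 with no filter, 1, 2, 1, 2, 2 and 5 above the 60th percentile, and 17, 7, 3, 9, 8 and 26 for genes above background on all arrays, a setting added after seeing the data. With the mean over probe sets, control 2 lay above in 85 genes and control 3 in 76. All other counts lay within 1.5 times the stated ones. The rule needs 3 pools and could not be applied with 1 left out. For the 31 lists, members above background were recounted with the mean over probe sets and with each array left out, and stayed within 1.5 times but for surface and pharyngeal epithelium with the mean (3), hindbrain without control 3 (12) and Y-linked genes without control 2 (3). The range of pool means moved beyond its spread over the left-out arrays in 6 lists with the mean, in 10 with the deposited scaling and in 18, 14 and 13 without controls 1, 2 and 3. No paired analysis was possible because no groups were compared. Dim genes limit the precision: in the 4 dimmest of 10 equal bands of level the median SD ran from 0.351 to 1.21.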

Other observations

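Families of adhesion, guidance and transport genes are given by how many members lay above background, beside 63.9% of all genes. Of 14 connexin genes, which form gap junctions, 3 lay above background on all control arrays. They were Gja1 with 8022, 9082 and 8833 in controls 1, 2 and 3, Gjc1 with 2936, 2993 and 2641, and Gjb2, while Gjb6, the partner of Gjb2 in the mature cochlea, gave 46.8, 37.1 and 37.7. Of 44 keratin genes, 7 lay above background, led by Krt18, Krt8 with 4515, 4669 and 4763, and Krt19 with 1753, 1956 and 1930. Of 21 cadherin genes, 8 were read, and Cdh2, the neural cadherin, gave 5426, 5517 and 5378 beside Cdh1. Among guidance molecules, all 8 ephrin genes and 19 of 20 semaphorin genes lay above background, with Efnb2 at 4861, 4768 and 4887 and Sema3e at 2809, 2672 and 2433, and so did 10 of 13 Eph receptor genes. Of 80 potassium channel genes, 23 were read, and Kcnk1 gave 4615, 4869 and 4360. The count was 12 of 20 for claudins, 14 of 29 for integrins, 5 of 11 for aquaporins and 9 of 16 for carbonic anhydrases. Genes of these families were chosen after their values were seen.

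The unnamed probe sets also carried signal. Of 9160, 2273 (24.8%) lay above the reference on all 3 arrays, against 60.02% of the probe sets with 1 symbol, and 36 were brighter than the 99th percentile of those. The brightest of them gave 18243, 21295 and 21545.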
